A study of Homo sapiens with 6 samples.

Results

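The insulin-like growth factor (IGF) binding proteins are secreted proteins that bind IGF-I and IGF-II outside the cell. Here the mRNA levels of 6 of them, IGFBP2, IGFBP3, IGFBP4, IGFBP5, IGFBP6 and IGFBP7, were followed through BRAF inhibition in A375 cells. The genes belong to the family by name and have probe sets that carry 1 gene symbol. They are 6 of 19775 genes with such a probe set. Where a gene had several, the one with the highest average signal stood for it. All 6 passed the filter on dim genes, a mean of at least 5 log2 units, which 13506 genes passed. The family member IGFBP1 also has a probe set with 1 symbol, but it was not among the genes chosen and did not pass this filter. The choice was made with earlier results of these data known. The members have 14 probe sets in all, and 3 genes (IGFBP3, IGFBP5 and IGFBP7) have more than 1.

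A375 is a human melanoma cell line with an activating BRAF mutation. The gene for eIF4B, a cofactor of the translation initiation helicase, was knocked out in these cells by CRISPR. A lentivirus then brought either LacZ into the knockout cells, here called the knockout line (KO/LacZ), or wild-type eIF4B, here called the rescued line (KO/eIF4B), so both lines carry the knockout and a lentiviral insert. Each line was treated with DMSO vehicle, with the BRAF inhibitor vemurafenib at 10 µM for 6 h, or with the same dose for 18 h, and each of these 6 combinations was measured on 1 Affymetrix array. How long the vehicle cells were kept is not in the labels, so drug and time in culture cannot be told apart. The labels name neither clones nor separate cultures, so p-values measure only the spread between these arrays, and a difference between the lines cannot be told apart from any other difference between 2 transduced lines.

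IGF binding proteins hold IGFs away from the IGF-I receptor, carry them in blood and tissue fluid, and release them when proteases cut the binding protein. IGFBP1 to IGFBP6 bind IGFs tightly, whereas IGFBP7 is a related protein with low affinity for IGFs. Several also act at the cell surface or in the matrix without IGF. In melanoma, IGF signalling feeds the PI3K pathway, and IGFBP7 has been proposed as a secreted brake on melanocytes with activated BRAF.

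The 6 arrays had medians between 5.196 and 5.221 on the log2 scale of the deposited RMA intensities. EIF4B itself, the check of the lines, read 8.40, 8.53 and 8.53 in the knockout line and 10.07, 10.14 and 10.28 in the rescued line under vehicle, 6 h and 18 h. It was 3.20-fold lower in the knockout line (log2 difference -1.68, SE 0.05, adjusted p = 0.0056 by limma, with p-values adjusted over all genes tested by the method of Benjamini and Hochberg). Unedited A375 cells were not among the arrays. Loss of EIF4B mRNA by the knockout and gain from the added eIF4B therefore cannot be told apart in this difference. Of 9 melanocyte lineage markers, 8 had a mean of at least 5. SOX10 lay between 9.86 and 10.57 log2 units and MITF between 8.10 and 9.97, while the pigment genes PMEL (5.54 to 5.81), TYR (5.44 to 5.72) and MLANA (4.76 to 4.99) were dim on all arrays. The epithelial markers EPCAM (2.32 to 2.73) and CDH1 (2.94 to 3.24) and the blood marker PTPRC (2.92 to 3.17) were near the bottom of the scale, whereas others of these lists were not: KRT18 read 11.70 to 12.75, KRT14 8.85 to 10.80, KRT8 7.94 to 8.94 and LYZ 6.06 to 7.15. Probe sets differ in how strongly they bind, so levels below are compared between arrays and never between genes.

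Under vemurafenib, members of the family moved in opposite directions, though drug and time in culture cannot be told apart. IGFBP3 and IGFBP4 fell in both lines, already at 6 h and further at 18 h. IGFBP5 and IGFBP6 rose in both lines at 18 h, with no call at 6 h. IGFBP2 and IGFBP7 were higher than under vehicle by small amounts at 18 h. For IGFBP7 the change was 0.33 at 6 h, not called, and 0.40 at 18 h, and its second probe set was not called. At 6 h, 2 of 6 members were lower and 0 higher, where 8.82% of all genes tested were called lower, 7.34% higher and 16.2% either way. At 18 h, 4 of 6 were higher and 2 lower, where 28.1% of all genes were called higher, 23.3% lower and 51.4% either way. From 6 h to 18 h, 3 of 6 rose and 2 fell, where 19.0% of all genes were called higher, 14.9% lower and 34.0% either way. A call alone was common at 18 h, so the sizes are given below. The median of the members' changes was -0.10 at 6 h and 0.37 at 18 h, against 0.03 and 0.01 over all genes tested.

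**Figure D1:**
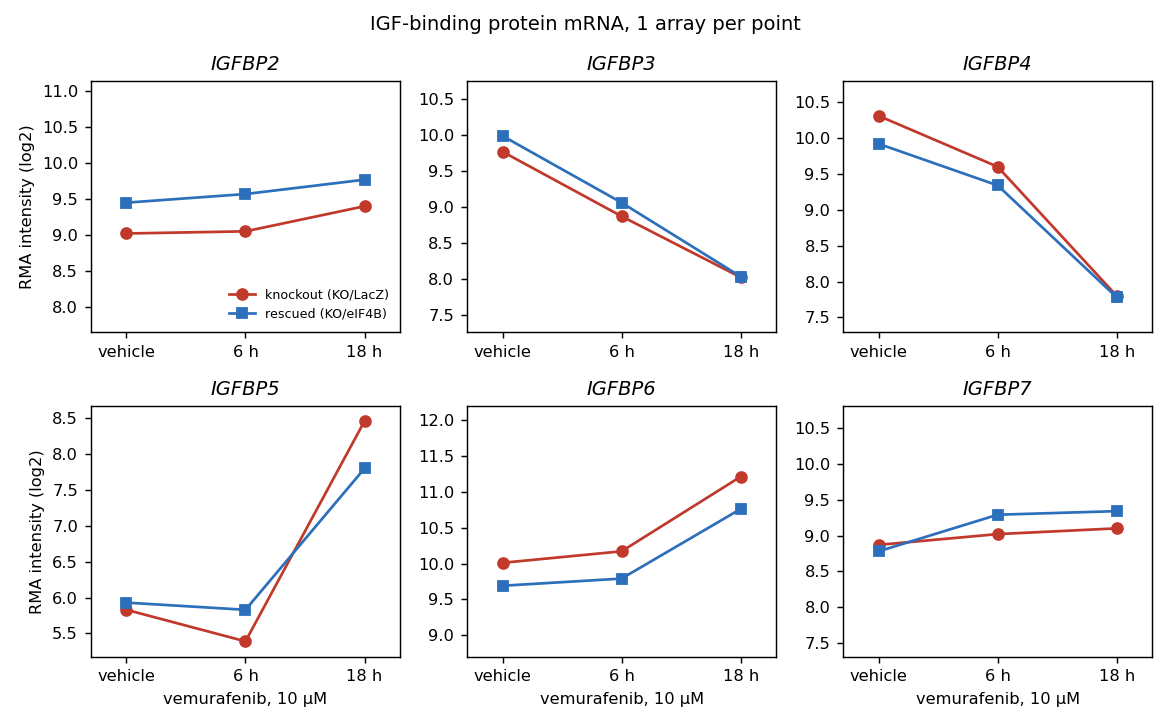
RMA intensity (log2) of the 6 genes, 1 panel per gene and 1 point per array, under vehicle, 6 h and 18 h of 10 µM vemurafenib, for the knockout line (circles) and the rescued line (squares). Every panel spans the same number of log2 units. IGFBP3 and IGFBP4 run down to 8.02 and 8.03 and to 7.80 and 7.78 at 18 h, and IGFBP5 and IGFBP6 run up after 6 h.

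IGFBP3 is the main carrier of IGFs in blood, where it forms a complex with the acid-labile subunit, and it can also slow growth and promote apoptosis. In the knockout line it read 9.77 log2 units under vehicle, 8.87 at 6 h and 8.02 at 18 h. In the rescued line it read 9.99, 9.06 and 8.03. The treatments did not overlap: both 18 h arrays lay below both 6 h arrays, and those below both vehicle arrays. The fall at 6 h was 1.89-fold (log2 change -0.91, SE 0.08, 95% confidence interval -1.11 to -0.72, limma adjusted p = 0.0034), with -0.90 in the knockout and -0.93 in the rescued line. At 18 h it was 3.62-fold (-1.86, SE 0.08, interval -2.05 to -1.66, limma adjusted p = 0.00020). This change ranked 92 from the lowest of the 13506 genes. The step from 6 h to 18 h added about as much again (-0.94, SE 0.08, limma adjusted p = 0.0028). In bulk RNA, fewer cells with a transcript and less transcript per cell cannot be told apart.

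The second IGFBP3 probe set gave nearly the same course at a lower signal. It read 8.72, 7.82 and 7.11 in the knockout line and 8.89, 8.03 and 7.08 in the rescued line, in the order vehicle, 6 h, 18 h. Its changes were -0.88 at 6 h and -1.71 at 18 h, and both were called when every probe set with a mean of at least 5 was tested on its own (limma adjusted p = 0.0037 and 0.00019).

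IGFBP4 holds IGFs in an inactive complex until the metalloprotease PAPP-A cleaves it. The knockout line read 10.31, 9.60 and 7.80 log2 units under vehicle, at 6 h and at 18 h, and the rescued line 9.92, 9.34 and 7.78. The lines, 0.39 apart under vehicle, read within 0.02 of each other at 18 h. The 18 h arrays stood far below all others: the fall was 5.01-fold (-2.32, SE 0.10, interval -2.58 to -2.07, limma adjusted p = 0.00022), rank 60 from the lowest of 13506 genes. Most of it came after 6 h. From 6 h to 18 h the change was -1.68 (SE 0.10, limma adjusted p = 0.0023), rank 20 from the lowest. The 6 h change was -0.64 (SE 0.10, interval -0.90 to -0.39, limma adjusted p = 0.018), and both 6 h arrays lay below both vehicle arrays. The 6 h call was lost without the knockout vehicle array (-0.52, limma adjusted p = 0.10), without the knockout 6 h array (-0.67, limma adjusted p = 0.076) and without the rescued 6 h array (-0.62, limma adjusted p = 0.10). Such a fit leaves 1 array in an arm, which is assumed to vary like the others.

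**Figure D2:**
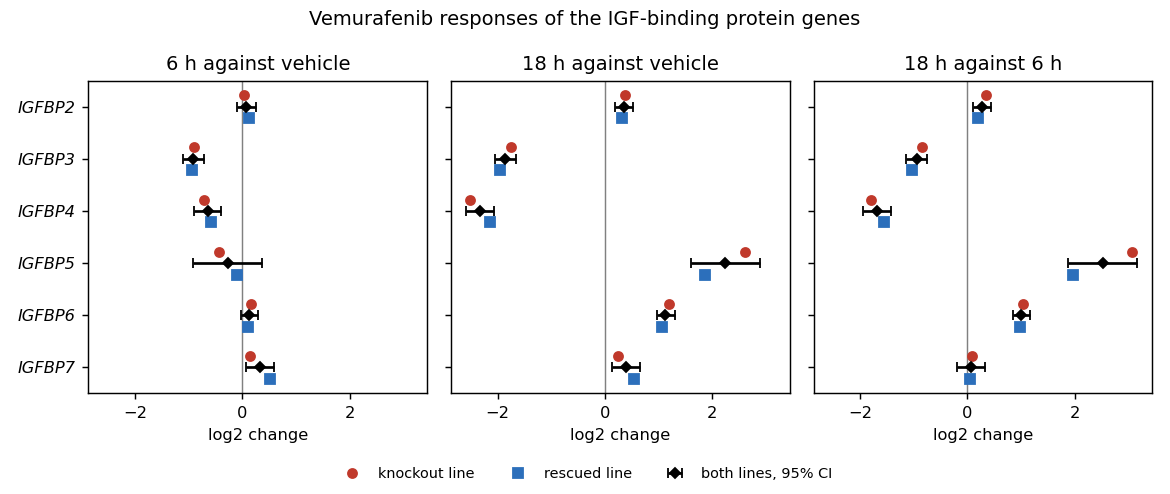
Log2 change of each gene for 6 h against vehicle, 18 h against vehicle and 18 h against 6 h. Diamonds are the change over both lines with its 95% confidence interval from the additive limma fit, circles the knockout line and squares the rescued line (1 array against 1 array). The changes at 18 h run between -2.32 for IGFBP4 and 2.24 for IGFBP5.

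The bases just before the transcription starts of the members that moved most are shown because these genes moved in opposite directions under the same drug. RefSeq (GRCh38.p14) gave promoters for 5 of the 6 members. Capitals mark matches to the TATA box letters TATAAA, the forkhead core TGTTTAC (bound by FOXO factors among others), the AP-1 site TGACTCA, the E-box CACGTG and the GC box GGGCGG, searched on both strands in the 250 bases before the start. No 2 matches overlap in the windows printed, and a match on the other strand reads as its reverse complement, such as CCGCCC for GGGCGG. Of the genes that fell, IGFBP3 is shown from chr7:45921273-45921522, minus strand, and IGFBP4 from chr17:40443200-40443449, plus strand.
IGFBP3: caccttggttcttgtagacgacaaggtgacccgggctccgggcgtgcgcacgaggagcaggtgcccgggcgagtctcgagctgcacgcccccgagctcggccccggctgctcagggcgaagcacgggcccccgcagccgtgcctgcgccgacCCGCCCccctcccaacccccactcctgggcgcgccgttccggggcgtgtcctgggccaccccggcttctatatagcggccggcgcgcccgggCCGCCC
IGFBP4: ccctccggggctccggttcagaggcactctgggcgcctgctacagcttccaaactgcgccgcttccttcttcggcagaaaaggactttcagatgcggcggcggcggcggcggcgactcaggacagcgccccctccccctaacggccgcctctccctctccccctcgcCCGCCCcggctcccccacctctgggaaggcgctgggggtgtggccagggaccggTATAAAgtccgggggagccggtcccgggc
The IGFBP3 window holds the GC box at 2 places, and the IGFBP4 window holds a TATA box at -29 to -24 and 1 GC box. Over the 35116 promoters of the table, the share with a match in the same window was 42.6% for the GC box and 10.7% for TATAAA.

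IGFBP5, the most conserved of the family, binds to extracellular matrix and is another substrate of pappalysins. On its brightest probe set the knockout line read 5.83 log2 units under vehicle, 5.39 at 6 h and 8.46 at 18 h. The rescued line read 5.93, 5.83 and 7.80. The 18 h arrays stood alone above the 4 others, which lay between 5.39 and 5.93, close to the array medians. At 18 h the rise was 4.74-fold (2.24, SE 0.25, interval 1.60 to 2.89, limma adjusted p = 0.0016), with 2.62 in the knockout and 1.87 in the rescued line. From 6 h to 18 h it was 2.52 (SE 0.25, limma adjusted p = 0.0039), rank 6 from the highest of 13506 genes. At 6 h the change was -0.27 (interval -0.92 to 0.37, limma adjusted p = 0.51), which was not called. It was 0.09 when the knockout 6 h array was left out.

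The 6 IGFBP5 probe sets did not agree on the size of this rise, and 3 of them had a mean under 5. The second brightest read 5.27, 5.22 and 5.74 in the knockout line and 5.28, 5.40 and 5.69 in the rescued line, a change of 0.43 at 18 h that was called (limma over probe sets with a mean of at least 5, adjusted p = 0.0073). The next one changed by 0.64 and was not called (limma adjusted p = 0.081): it differed by 1.08 between the 18 h and vehicle arrays of the knockout line, and by 0.20 in the rescued line. The 3 dim ones changed by 0.17, 0.18 and 0.20, and none was called over all probe sets (limma adjusted p = 0.21, 0.17 and 0.22). All 6 changes at 18 h were above 0 in both lines. With the 6 probe sets averaged the change was 0.64, and the mean signal of 4.84 was below the filter. Where in the transcript each probe set lies was not analysed here.

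**Figure D3:**
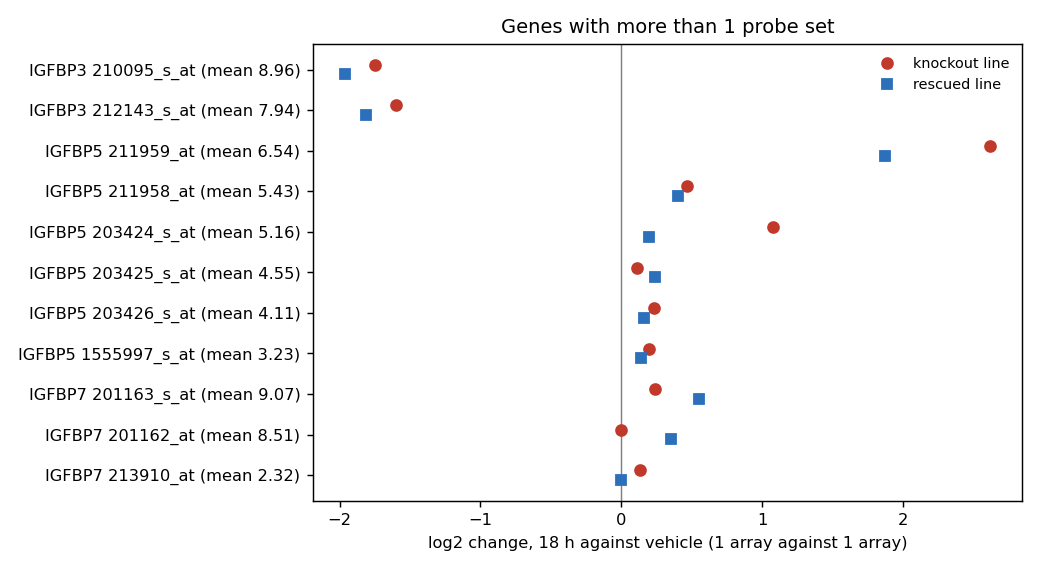
Log2 change at 18 h against vehicle of every probe set of IGFBP3, IGFBP5 and IGFBP7, with the probe set's mean log2 signal in brackets, for the knockout line (circles) and the rescued line (squares), 1 array against 1 array. The IGFBP3 probe sets lie between -1.96 and -1.60, while those of IGFBP5 spread from 0.11 to 2.62.

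IGFBP6 differs from its relatives in its preference for IGF-II. The knockout line read 10.01 log2 units under vehicle, 10.17 at 6 h and 11.21 at 18 h, and the rescued line 9.69, 9.79 and 10.76. Both 18 h arrays were above all others. The rise at 18 h was 2.19-fold (1.13, SE 0.06, interval 0.97 to 1.30, limma adjusted p = 0.00035), with 1.20 in the knockout and 1.07 in the rescued line. At 6 h the change was 0.13 (interval -0.03 to 0.30, limma adjusted p = 0.23) and was not called. Between 6 h and 18 h it rose (SE 0.06, limma adjusted p = 0.0023), by 1.04 in the knockout and 0.97 in the rescued line.

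Of the genes that rose, IGFBP5 is shown from chr2:216695550-216695799, minus strand, and IGFBP6 from chr12:53097417-53097666, plus strand, marked as before.
IGFBP5: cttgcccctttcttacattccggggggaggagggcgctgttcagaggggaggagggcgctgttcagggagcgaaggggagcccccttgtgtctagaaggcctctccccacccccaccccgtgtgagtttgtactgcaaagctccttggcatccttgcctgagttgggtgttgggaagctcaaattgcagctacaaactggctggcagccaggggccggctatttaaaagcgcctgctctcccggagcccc
IGFBP6: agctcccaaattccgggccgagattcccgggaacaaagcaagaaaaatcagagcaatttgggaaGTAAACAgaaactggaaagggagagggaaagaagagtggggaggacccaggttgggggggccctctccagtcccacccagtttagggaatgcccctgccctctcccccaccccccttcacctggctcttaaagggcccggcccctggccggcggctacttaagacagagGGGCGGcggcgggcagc
The IGFBP5 window held none of the 5 motifs in these letters. The IGFBP6 window holds the forkhead core on the other strand, read as GTAAACA, at -186 to -180, and a GC box at -17 to -12. The forkhead core stood in 2.98% of the 35116 promoters. None of the 4 windows printed held TGACTCA or CACGTG, which stood in 4.2% and 6.34% of them. These are letter matches, not measured binding sites.

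IGFBP2 carries an integrin-binding RGD motif and is secreted by many tumours. Its gene lies next to that of IGFBP5 on chromosome 2. The knockout line read 9.02, 9.05 and 9.40 log2 units under vehicle, at 6 h and at 18 h, and the rescued line 9.45, 9.57 and 9.77. Within each line the 18 h array was highest, but the treatments overlapped across the lines. The rise at 18 h was 1.27-fold (0.35, SE 0.07, interval 0.18 to 0.52, limma adjusted p = 0.0092), against a change of 0.08 at 6 h that was not called (limma adjusted p = 0.48). The 18 h call was lost without the knockout vehicle array (0.36, limma adjusted p = 0.067) and without the rescued vehicle array (0.33, limma adjusted p = 0.077). From 6 h to 18 h the change was 0.27 (limma adjusted p = 0.032). That call held without the rescued 18 h array (limma adjusted p = 0.047) and was lost without each of the other arrays, with limma adjusted p-values of 0.066 to 0.20.

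IGFBP7 is secreted into matrix and around vessels. The knockout line read 8.87, 9.02 and 9.10 log2 units under vehicle, at 6 h and at 18 h. The rescued line read 8.78, 9.29 and 9.34. Drug arrays lay above vehicle arrays in both lines, by more in the rescued line. At 18 h the rise was 1.32-fold (0.40, SE 0.10, interval 0.13 to 0.66, limma adjusted p = 0.025), with 0.24 in the knockout and 0.55 in the rescued line. The 6 h change of 0.33 was not called (limma adjusted p = 0.094, or 0.037 and called with a variance trend), and the 18 h level differed from the 6 h level by 0.07 (interval -0.20 to 0.33). The 18 h call was lost without the knockout 18 h array (0.47, limma adjusted p = 0.063), without the rescued vehicle array (0.23, limma adjusted p = 0.17) and without the rescued 18 h array (0.33, limma adjusted p = 0.13).

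The second IGFBP7 probe set did not repeat the call. It read 8.51, 8.43 and 8.51 in the knockout line and 8.28, 8.69 and 8.64 in the rescued line. Its change of 0.18 at 18 h missed the threshold (limma adjusted p = 0.29). The remaining one, with a mean of 2.32, was dim on all arrays. Averaged over its 3 probe sets, IGFBP7 changed by 0.21 at 18 h and was not called (limma adjusted p = 0.085).

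IGFBP1, which is mostly made in liver and lies next to IGFBP3 on chromosome 7, is outside the chosen members. Its brightest probe set read 2.78, 2.79 and 2.58 in the knockout line and 2.74, 2.50 and 2.79 in the rescued line. These values are near the bottom of the scale, and the gene did not pass the filter.

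Loss of eIF4B was asked about next, by setting the knockout line against the rescued line over all 3 treatments. IGFBP2 was lower in the knockout line and IGFBP6 higher, and the other 4 members were not called. In all, 1 of 6 was higher and 1 lower, where 1.44% of all genes tested were called higher, 1.06% lower and 2.50% either way. IGFBP2 was 1.36-fold lower in the knockout line (log2 difference -0.44, SE 0.05, interval -0.58 to -0.30, limma adjusted p = 0.035), by -0.42 under vehicle, -0.52 at 6 h and -0.37 at 18 h. IGFBP6 was 1.31-fold higher in the knockout line (0.39, SE 0.05, interval 0.25 to 0.52, limma adjusted p = 0.041), by 0.32, 0.39 and 0.45. Both signs held in 3 of 3 pairs of arrays, and the pairs differed from each other by less than the mean difference.

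These line calls were close to the threshold. Leaving out any 1 of the 6 arrays ended both: the limma adjusted p-values were then 0.098 to 0.13 for IGFBP2 and 0.12 to 0.14 for IGFBP6, while the differences stayed between -0.47 and -0.40 and between 0.35 and 0.42. In these fits 0 to 50 genes of 13506 were called, against 337 with all arrays. Both calls were also lost without the filter on dim genes (limma adjusted p = 0.067 and 0.079). The line difference was the same whichever array of a treatment was left out, so the 6 fits were not 6 separate checks.

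The values of the other members, none of them called, were less even over the treatments. IGFBP4 was 0.39 higher in the knockout line under vehicle and 0.02 higher at 18 h, with a mean of 0.22 (interval 0.01 to 0.43, limma adjusted p = 0.20). IGFBP3 differed by -0.22 under vehicle and -0.01 at 18 h, with a mean of -0.14 (interval -0.30 to 0.02, limma adjusted p = 0.25). IGFBP7 differed by 0.09, -0.27 and -0.23 under vehicle, 6 h and 18 h, with a mean of -0.14 (limma adjusted p = 0.39). IGFBP5 differed by -0.10, -0.44 and 0.66, with a mean of 0.04 (interval -0.49 to 0.56, limma adjusted p = 0.93). Its mean was -0.27 when either 18 h array was left out.

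**Figure D4:**
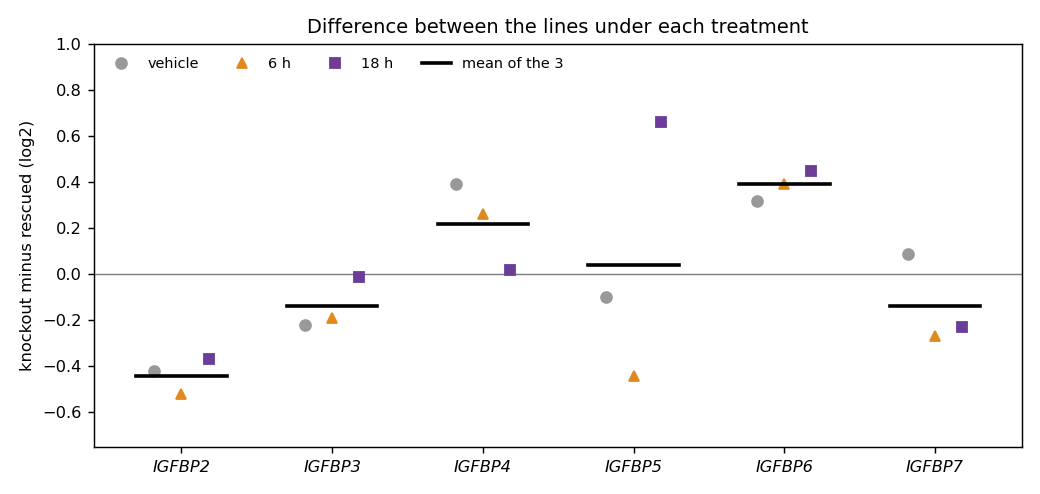
Difference between the lines, knockout minus rescued on the log2 scale, under vehicle (circles), 6 h (triangles) and 18 h (squares), with the mean of the 3 as a bar, 1 array against 1 array per point. IGFBP2 stays between -0.52 and -0.37 and IGFBP6 between 0.32 and 0.45, while IGFBP5 ranges from -0.44 to 0.66.

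Whether the lines differ in their response to the drug has no test at a single time, since each response rests on 1 pair of arrays. On the brightest probe set IGFBP5 changed by 0.76 log2 units more in the knockout line at 18 h, and by 0.28 more with its 6 probe sets averaged. At 6 h IGFBP5 differed the other way, by -0.34. IGFBP7 differed by -0.35 at 6 h and -0.32 at 18 h, the second being -0.18 with its probe sets averaged, and IGFBP4 by -0.37 at 18 h. The other differences lay between -0.13 and 0.21. None reached 1 log2 unit, a size that 0.148% of all genes tested reached at 6 h and 0.422% at 18 h. A term for the difference shared by both times, with 1 residual degree of freedom and chosen after seeing the data, called 0 of 13506 genes (limma with Benjamini-Hochberg adjustment, 302 at an unadjusted p under 0.05). For IGFBP7 it was -0.34 (SE 0.14, limma adjusted p = 1.0).

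The rest of the IGF axis was read from a list of 45 genes, IGFBP1 included, of which 35 were tested. At 6 h, 0 of these rose and 8 fell, with a median of -0.10, where 7.34% of all genes were called higher and 8.82% lower. At 18 h, 4 rose and 12 fell, with a median of -0.05. Over all genes, 28.1% were called higher, 23.3% lower and 51.4% either way at 18 h. The 8 and the 12 include ESM1, which passed the filter on dim genes only through its vehicle arrays and so had to differ. Between the lines 1 was higher in the knockout line, the matricellular protein CCN3, by 0.72 (SE 0.09, limma adjusted p = 0.034), where 2.50% of all genes were called either way. Like the line calls of IGFBP2 and IGFBP6, this call was close to the threshold.

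The receptors and ligands of the axis that were tested were not called in any of the 4 contrasts. INS, listed as a ligand, and INSRR, listed as a receptor, did not pass the filter on dim genes and were not tested. The IGF-I receptor gene IGF1R read 9.51, 9.26 and 9.18 in the knockout line and 9.24, 8.94 and 9.14 in the rescued line, a change of -0.21 at 18 h (SE 0.09, limma adjusted p = 0.10). The insulin receptor gene INSR and IGF2R, the receptor that clears IGF-II, changed by -0.02 and 0.13 at 18 h. IGF1 was dim, between 5.28 and 5.76 on all arrays, and IGF2 had no probe set with 1 symbol. IRS2, an adapter that links these receptors to PI3K, fell by 0.35 at 6 h and by 0.56 at 18 h (limma adjusted p = 0.028 and 0.0019).

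Genes that act on the binding proteins after secretion went both ways. STC1, an inhibitor of the pappalysins that cut IGFBP4 and IGFBP5, was lower in both lines, with changes of -1.64 at 6 h and -1.59 at 18 h (limma adjusted p = 0.00075 and 0.00026). PAPPA itself differed by -0.05 at 18 h and was not called (limma adjusted p = 0.69). HTRA1, a serine protease with an IGFBP-type domain that can cut IGFBP5, rose by 1.36 at 18 h (SE 0.14, limma adjusted p = 0.0012), with 1.65 in the knockout and 1.07 in the rescued line. ADAM9 rose by 0.26 and ADAM28 fell by 0.43 at 18 h. Among cell surface partners TMEM219, a receptor for IGFBP3, rose by 1.02 at 18 h (SE 0.08, limma adjusted p = 0.00063), and LRP1 rose by 0.28, while the integrin subunit ITGA5 and the transferrin receptor gene TFRC fell by 0.33 and 0.36.

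Of the 8 tested genes listed as other proteins with an IGFBP-type domain, 4 were called lower and 0 higher at 18 h against vehicle. Over all genes, 51.4% were called either way, 23.3% lower and 28.1% higher. HTRA1, which also has such a domain and rose by 1.36, was listed with the proteases and is not among the 8. Of the 4 called lower, CCN1 had a change of -1.70, CCN2 of -1.15 and CRIM1 of -0.59. The other was ESM1, a secreted proteoglycan of endothelium, which passed the filter on dim genes only through its vehicle arrays and so had to differ. It read 8.81, 4.24 and 3.98 in the knockout line and 8.01, 4.01 and 3.16 in the rescued line under vehicle, 6 h and 18 h. CCN3 fell by 0.67 at 6 h and was not called at 18 h against vehicle, with a change of 0.31. From 6 h to 18 h it rose by 0.98 (limma adjusted p = 0.0046). All 3 IGF2 mRNA-binding proteins, which bind IGF2 and other mRNAs inside the cell, fell at 18 h, IGF2BP1 by 0.71, IGF2BP2 by 0.68 and IGF2BP3 by 0.61.

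**Figure D5:**
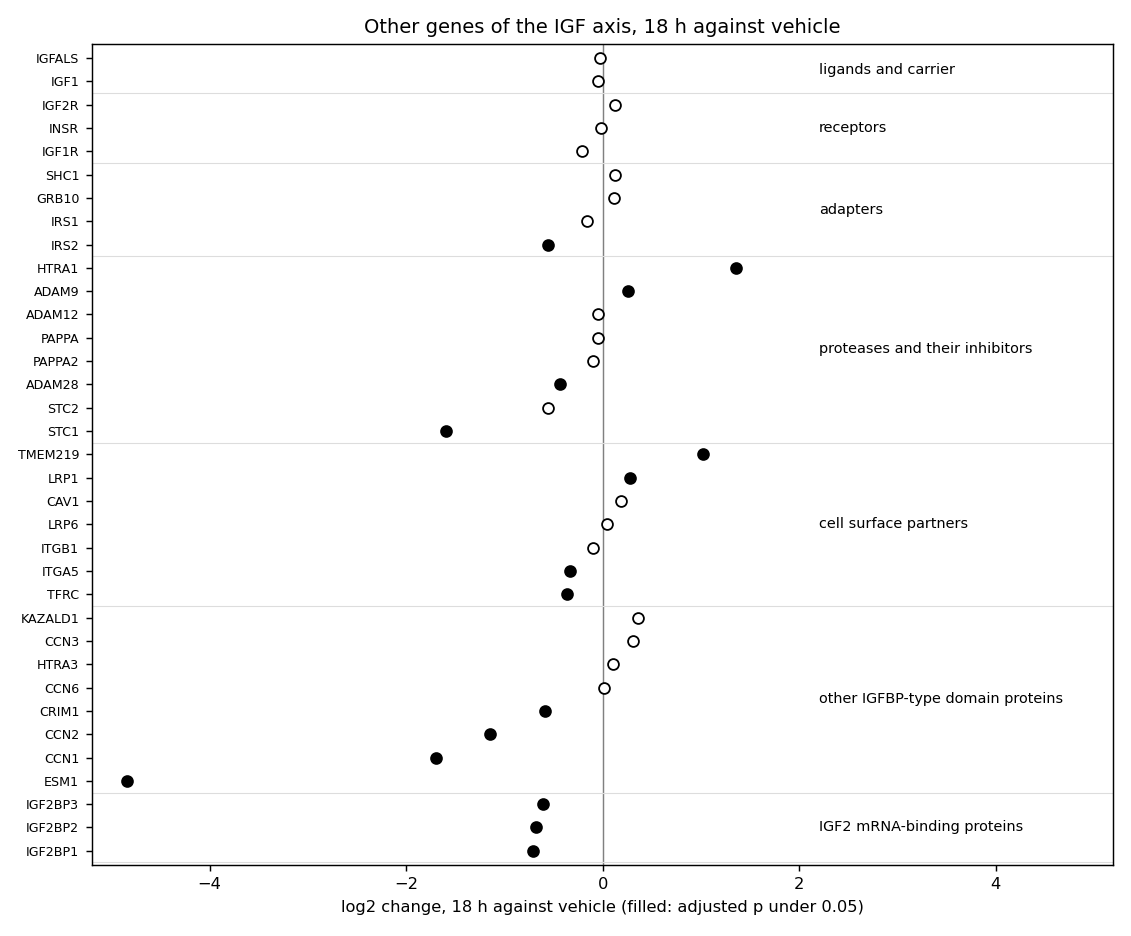
Log2 change at 18 h against vehicle, over both lines, of the 35 tested genes of the IGF axis, grouped by role. Filled points passed an adjusted p of 0.05 in the additive limma fit. HTRA1 lies highest at 1.36 and ESM1, dim on all drug arrays, lowest at -4.84.

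Some markers of other cell types moved in the same arrays as IGFBP5 and IGFBP6. At 18 h against vehicle, 28.1% of all genes tested were called higher, 23.3% lower and 51.4% either way. Of 7 fibroblast markers 4 were tested, and 2 rose at 18 h, DCN by 1.78 and LUM by 2.49, while COL1A1 differed by 0.02. COL1A2, COL3A1 and PDGFRA stayed between 3.19 and 4.94 log2 units on all arrays. The summed linear intensity of the 7 was 1066.9 and 1360.7 in the knockout and rescued 18 h arrays, against 483.5 and 593.1 in the vehicle arrays. Sums are given for the knockout line and then the rescued line throughout. Each sum weighs bright probe sets most, such as KRT18 among the epithelial markers. Of 4 endothelial markers 2 were tested. VWF rose by 0.24 at 18 h and PECAM1, with a change of -0.18, was not called. KDR, which did not pass the filter on dim genes, read 5.25 and 5.71 under vehicle and 3.97 and 3.88 at 18 h. The endothelial sum was 116.1 and 133.9 at 18 h against 152.3 and 170.6 under vehicle. Of 4 epithelial markers tested, KRT14 rose by 1.45 and KRT8 by 0.39 at 18 h and KRT18 fell by 0.78. KRT8 was also 0.49 higher in the knockout line (limma adjusted p = 0.035), the direction of IGFBP6. That line call too was close to the threshold, and 2.50% of all genes were called either way between the lines. The epithelial sum over 6 markers was 6227.9 and 4936.8 at 18 h against 7921.7 and 6343.9 under vehicle. The sum of 3 blood markers was 127.8 and 134.1 at 18 h against 173.2 and 205.3 under vehicle, and LYZ fell by 0.86. Of the 8 melanocyte markers tested 3 rose and 1 fell at 18 h, and their sum over 9 was 4511.4 and 4371.5 against 3459.0 and 3591.2. Their part in the changes of the binding proteins was not tested.

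The genes whose course over the 6 arrays lay closest to each member were found by the root mean square difference between centred log2 values. For IGFBP3 they were LINC01293 (0.05 log2 units), TMEM201 (0.06) and DCLK1 (0.10), and for IGFBP4 they were CD96 (0.17), SFRP1 (0.21) and MCM10 (0.21). SFRP1, a secreted WNT inhibitor, read 10.68, 9.74 and 8.36 in the knockout line and 10.73, 9.93 and 8.32 in the rescued line. For IGFBP5 they were NEBL (0.16), CYP1B1 (0.28) and DHRS3 (0.29). NEBL read 4.41 to 4.86 on the vehicle and 6 h arrays. It passed the filter on dim genes only through its 18 h arrays and so had to rise. For IGFBP6 they were CFD (0.08), ARFGEF3 (0.08) and THBS3 (0.09). The nearest to IGFBP2 were GABPB2 (0.03), CCDC88A (0.04) and CRBN (0.05), and to IGFBP7 OGFOD2 (0.04), HS3ST1 (0.04) and HENMT1 (0.05). The members' own standard deviations over the arrays were between 0.22 for IGFBP7 and 1.26 for IGFBP5, and no member was among another's nearest 3.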

How the data were processed

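The values are those of 6 Affymetrix arrays, 1 per line and treatment. The deposited table holds linear intensities made by RMA in affy, per the submitters' processing notes, which give no version. RMA sets all arrays to 1 distribution, so it cannot show whether cells held more or less mRNA in total, and it compresses changes of dim probe sets. The design had assumed log2 values, so log2 was taken first.

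Of 54675 probe sets, 41091 carry 1 symbol in the platform annotation. Genes were represented by their highest-mean probe set, and 13506 of 19775 genes with a mean of at least 5 were tested. An additive model of line and treatment over all 6 arrays was fitted in limma 3.58.1 (R 4.3.3), with 2 residual and 3.19 prior degrees of freedom, Benjamini-Hochberg adjustment over all genes and a threshold of 0.05. Its error is the disagreement between the lines. The fit was also run on simulated data with independent noise drawn from its own variance estimate. That run cannot show how single real arrays vary.

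The members, gene lists and tests were chosen with earlier results of these data known. All members were named, with every called gene of the IGF axis lists open to naming and the 3 closest courses per member. Promoters are from RefSeq (GRCh38.p14). Alternatives covered the filter, the probe set, scaling, variance prior, a minimum change, and arrays left out.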

Additional observations from a re-analysis of the deposited data

Results flagged for a closer look

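Among the member probe sets with a mean of at least 5, the drug response against vehicle had opposite signs in the 2 lines for 2 probe sets, both at 6 h. For the second IGFBP7 probe set the 6 h array differed from vehicle by -0.08 log2 units in the knockout and by 0.41 in the rescued line, a difference between the responses of -0.49. For the second IGFBP5 probe set the values at 6 h were -0.05 in the knockout and 0.11 in the rescued line, a difference of -0.16. Each rests on 1 array per condition, and neither difference was tested. Smaller differences in sign stood in dim IGFBP5 probe sets, with -0.18 in the knockout and 0.06 in the rescued line at 6 h in one, and 0.19 and -0.02 for 18 h against 6 h in another. The second IGFBP7 probe set read 0.08 in the knockout and -0.05 in the rescued line for 18 h against 6 h.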

How the results depend on the processing

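The calls of IGFBP3, IGFBP4, IGFBP5 and IGFBP6 at 18 h held under every alternative that gave a value, leaving out each array included, though IGFBP5 fell under the filter when its probe sets were averaged. IGFBP4 and IGFBP6 have 1 probe set each, so the choice of probe set could not change their values. With every probe set tested on its own, the IGFBP5 call counted here was that of its brightest probe set. The smaller changes of its other probe sets are given above. The IGFBP3 fall at 6 h was no longer called under the test for changes beyond 0.5 (limma adjusted p = 0.070). The additive fit already compares the treatments within each line and the lines within each treatment. With 1 array per line and treatment there were no replicates to pair further. Each array left out in turn gave 1 to 2 members called at 6 h, 4 to 6 at 18 h, 4 to 5 for 18 h against 6 h and 0 between the lines; all genes called then numbered 594 to 2530, 4310 to 6563, 1435 to 4252 and 0 to 50. Among values not called, IGFBP5 at 6 h ranged from -0.63 to 0.09 and between the lines from -0.27 to 0.28, and IGFBP7 for 18 h against 6 h from -0.03 to 0.16. That test left 0 members at 6 h (227 genes), 4 at 18 h (1558 genes), 3 for 18 h against 6 h (240 genes) and 0 between the lines (1 gene). Without the filter on dim genes 1398 genes were called at 6 h, and 0 members and 58 genes between the lines. With every probe set tested without a filter, an alternative chosen after seeing the data, 0 members were called between the lines. A filter at 6 gave 513 genes and a variance trend 1169 between the lines, against 337; the trend also called IGFBP7 at 6 h, for 3 members in all. Averaging probe sets moved the difference in response at 18 h to 0.28 for IGFBP5 and -0.18 for IGFBP7. The cause was not tested. The number of arrays limits the precision.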
